A study of Mus musculus with 9 samples.

Results

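HOXD13-only sites are stretches of the mouse genome where HOXD13, but not HOXA13, was called by CUT&RUN in wild-type distal forelimb at E12.5. In CUT&RUN an antibody brings micrococcal nuclease to a DNA-binding protein, and the fragments cut loose around it are sequenced. The intervals of the 6 wild-type (wt) peak lists were merged where they overlapped by at least 1 bp, which gave 138528 sites. Members were chosen by their calls: a site had to overlap an interval in at least 2 of the 3 wt HOXD13 lists and in none of the 3 wt HOXA13 lists. This left 661 of 138528 sites (0.477%). The mirror rule gave 9084 HOXA13-only sites, and 29871 sites with at least 2 HOXD13 lists and at least 1 HOXA13 list are called shared.

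All groups were distal forelimbs of B6CBAF1 mouse embryos, pooled over several embryos of different litters. The wt groups at E12.5 held 3 libraries with the HOXA13 antibody and 3 with the HOXD13 antibody, of which HOXD13 replicate 3 is labelled as a reanalysis of a sample deposited earlier. The 542 groups came from embryos homozygous for II1 T-DOM 542, a single line that carries 1 copy of the distal limb enhancer II1 with the HBB promoter and lacZ in the domain flanking HoxD on its telomeric side. Of these, 2 HOXA13 libraries are labelled E12.5 and 1 HOXD13 library is labelled E11.5, so stage and antibody cannot be told apart in the 542 line by these labels. The growth protocol describes the same day of collection for every sample, which conflicts with the E11.5 title, and the true stage of that library is not known here. The lists held 23939 to 117719 intervals, and no control library was used. The depth of the libraries, estimated from the background level behind the peak calls and not counted, was 36.9 to 65.5 M read ends. Peak lists hold no transcript levels, so the tissue could not be checked against marker genes.

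HOXA13 and HOXD13 are the most posterior members of the HoxA and HoxD clusters and act together in forming the digits. Their homeodomains bind an A/T-rich string with a TAAA core, and their roles in the autopod overlap in large part. Sites where 1 of the 2 proteins is called alone are therefore of interest, and such calls also depend on how deep each list reaches.

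The sequences of 8 members are shown first because the results turn on what their summits hold. Each is 200 bases of GRCm38 (the assembly of mm10), plus strand, centred on the main summit of the HOXD13 list in which the site ranked highest by -log10 p. Capitals mark matches on either strand to the HOX13 consensus (CCNATAAA, CCNGTAAA, CTNATAAA or CTNGTAAA) or to a core of the CTCF motif (CCANNAGNNGGC). The first 3 hold a HOX13 match: chr3:123072858-123073057, intergenic, 37943 bp upstream of Myoz2; chr11:98754698-98754897, in an intron of Thra; and chr9:115205617-115205816, in an intron of Osbpl10 and 104704 bp from the start of Stt3b.
Myoz2: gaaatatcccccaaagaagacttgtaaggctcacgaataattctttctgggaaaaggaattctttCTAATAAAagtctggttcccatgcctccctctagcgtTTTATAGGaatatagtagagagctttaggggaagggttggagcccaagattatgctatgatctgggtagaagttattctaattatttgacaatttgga
Thra: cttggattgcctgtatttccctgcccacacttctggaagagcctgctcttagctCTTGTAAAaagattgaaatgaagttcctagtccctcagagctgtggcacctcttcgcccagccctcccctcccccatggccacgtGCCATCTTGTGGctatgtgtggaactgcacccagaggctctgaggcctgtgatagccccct
Stt3b: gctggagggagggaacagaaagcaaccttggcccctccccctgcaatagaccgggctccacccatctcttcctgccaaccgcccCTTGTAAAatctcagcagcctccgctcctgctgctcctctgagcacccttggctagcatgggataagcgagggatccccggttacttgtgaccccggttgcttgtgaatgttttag
The next 2 hold only the CTCF core, at chr15:76552805-76553004, intergenic and nearest to Slc52a2, and at chr4:135067255-135067454, intergenic and 53297 bp upstream of Runx3. The Slc52a2 site was picked for its match after values were seen.
Slc52a2: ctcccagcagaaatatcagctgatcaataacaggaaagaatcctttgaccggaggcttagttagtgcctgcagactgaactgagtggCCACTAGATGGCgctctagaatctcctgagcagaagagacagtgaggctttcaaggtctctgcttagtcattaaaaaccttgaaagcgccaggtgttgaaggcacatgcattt
Runx3: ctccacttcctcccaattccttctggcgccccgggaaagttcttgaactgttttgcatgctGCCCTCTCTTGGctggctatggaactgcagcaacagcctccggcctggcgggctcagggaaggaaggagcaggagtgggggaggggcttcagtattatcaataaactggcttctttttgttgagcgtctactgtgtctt
The last 3 hold neither string, as did most members. They lie at chr11:88718332-88718531 in an intron of Msi2, at chr3:12505078-12505277 in an intergenic stretch 966504 bp upstream of Ralyl, and at chr13:63528487-63528686 in an intron of Ptch1.
Msi2: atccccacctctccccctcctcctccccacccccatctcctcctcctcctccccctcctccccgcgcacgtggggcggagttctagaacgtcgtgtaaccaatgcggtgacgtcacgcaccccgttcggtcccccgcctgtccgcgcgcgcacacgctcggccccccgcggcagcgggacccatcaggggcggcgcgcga
Ralyl: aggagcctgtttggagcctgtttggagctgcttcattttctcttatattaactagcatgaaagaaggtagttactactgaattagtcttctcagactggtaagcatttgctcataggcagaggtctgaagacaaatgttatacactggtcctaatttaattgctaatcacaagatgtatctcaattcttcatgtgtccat
Ptch1: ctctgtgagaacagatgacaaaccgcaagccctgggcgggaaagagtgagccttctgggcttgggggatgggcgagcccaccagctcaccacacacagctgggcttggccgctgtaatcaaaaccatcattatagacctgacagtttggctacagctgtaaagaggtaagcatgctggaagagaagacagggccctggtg

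Few members were called by every HOXD13 library. Of the 661 sites, 44 (6.66%) were called in all 3 lists and 617 in exactly 2. Among sites that met 1 HOXA13 list, 199 were called in all 3 HOXD13 lists and 1769 in exactly 2. Among sites that met all 3 HOXA13 lists, these counts were 13916 and 8370. HOXD13 replicates 2 and 3 alone shared 431 members (65.2%), replicates 1 and 2 shared 158 (23.9%) and replicates 1 and 3 shared 28 (4.24%). Replicate 2 has the longest wt HOXD13 list, with 76838 intervals, and called 633 of the members. Replicate 1 has the shortest, with 23939 intervals, and called 230. The number of sites rested on single libraries. Without HOXD13 replicate 2 it was 73, without HOXD13 replicate 3 it was 201, and without HOXA13 replicate 1 or 3 it was 1922 or 1311. With all lists cut to their top 20000 intervals by -log10 p, 2070 HOXD13-only and 2437 HOXA13-only sites were found, against 661 and 9084 in the full lists. Of those 2070, 47 overlapped the 661, and 97.7% met a HOXA13 interval in the full lists. No site remained with a fold enrichment of at least 5 in the HOXD13 lists, and 78 did with a -log10 q of at least 5. Just outside the rule lay 26504 sites called in 1 HOXD13 list and no HOXA13 list, and 1968 sites called in 2 or 3 HOXD13 lists and exactly 1 HOXA13 list.

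Members were weak peaks. The fold enrichment, which is the pileup of read ends at the summit over the local background, had a median over members of 3.17 in HOXD13 replicate 1, 2.998 in replicate 2 and 3.20 in replicate 3. Over shared sites the medians in the same lists were 4.09, 4.95 and 3.75. These values bear on the rule, since weak sites are less often called in several lists, and they are given as a description. The median member stood at the 20.5th, 41.8th and 35.5th percentile of its list by fold enrichment. Only 3, 22 and 4 members reached a fold enrichment of 5 in replicates 1, 2 and 3. The pileups behind these calls had medians of 17, 27 and 17 read ends. An absent HOXA13 interval therefore says that HOXA13 was not called at this depth, not that it was absent.

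**Figure D1:**
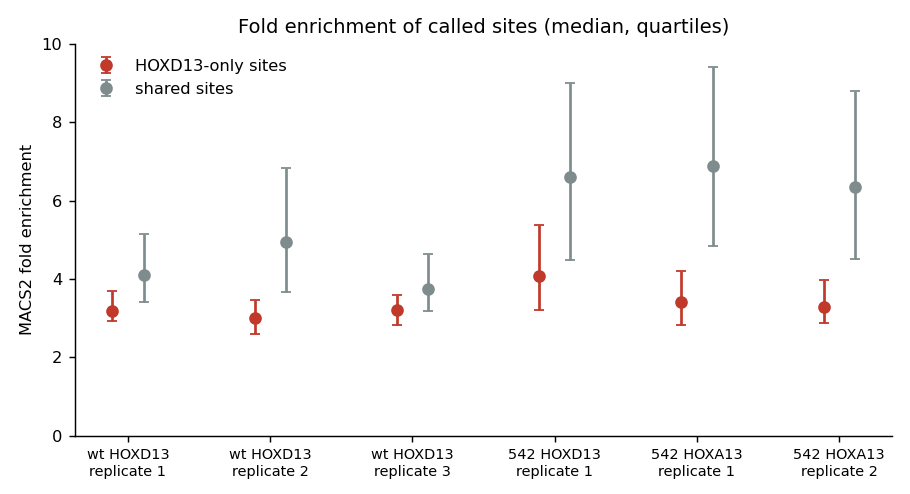
Fold enrichment (y axis, linear) of HOXD13-only sites and shared sites in the 3 wt HOXD13 lists and the 3 lists of the 542 line (x axis). Points are medians over the sites called in that list and bars span the quartiles. HOXD13-only sites lie below shared sites in every list, with medians from 2.998 to 4.07 against 3.75 to 6.90. In the 542 lists the value is that of an overlapping interval, whose summit may lie outside the site.

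Many members had a HOXA13 interval nearby. The median distance to the nearest wt HOXA13 interval was 2973 bp, with quartiles of 887 and 7414 bp. A HOXA13 interval was found within 1000 bp of 177 members (26.8%) and within 10000 bp of 540 (81.7%). For sites called in 1 HOXD13 list and no HOXA13 list, these shares were 22.1% and 71.8%, not far below those of the members. The median width was 450 bp for members, 512 bp for HOXA13-only, 972 bp for shared and 411 bp for all merged sites. Shared sites are merged from intervals of at least 3 lists, which widens them by construction.

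The 10 strongest members that all 3 lists called lay at or near 10 different genes. The first by median percentile of fold enrichment lay 203 bp upstream of a start of Msi2, which encodes a Musashi RNA-binding protein. Its fold enrichment was 3.90, 4.73 and 5.67 in HOXD13 replicates 1, 2 and 3, from pileups of 30, 103 and 56 read ends, and a HOXA13 interval ended 165 bp away. The site upstream of Myoz2, which encodes a protein of the muscle Z-disc, reached 3.12, 4.68 and 4.45. The intronic site of Thra, the thyroid hormone receptor alpha gene, reached 3.98, 4.37 and 4.57. All 3 sites were higher in replicates 2 and 3 than in replicate 1.

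The site in an intron of Chst3, a sulfotransferase gene of chondroitin synthesis, had fold enrichments of 4.42, 5.77 and 4.10 in the same 3 lists, 8761 bp upstream of the nearest start. The site upstream of Ralyl, the most remote of the 10, had 2.93, 4.32 and 4.65, with the nearest HOXA13 interval 87364 bp away. The intronic site of Pkm, the pyruvate kinase gene of muscle and many growing tissues, had 3.59, 5.43 and 4.03 at 617 bp from the start. Chst3 and Pkm were thus highest in replicate 2 and Ralyl in replicate 3. Zcchc3 had 4.53, 6.30 and 3.71, and Casq1, the calsequestrin gene of skeletal muscle, had 4.43, 6.44 and 3.57. Nefm, a neurofilament gene, had 3.19, 3.96 and 4.14, and Nars, an asparaginyl-tRNA synthetase gene, had 3.71, 3.92 and 3.95.

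The 2 highest members of the whole set by percentile lay at the start of chromosome 9, where the reference marks all 200 bp at the summit as repeats. They are at chr9:3022072-3022298 and chr9:3001978-3002206, in or beside the gene models Gm26870, Gm10718 and Gm10722. The first had fold enrichments of 11.1 and 4.36 in HOXD13 replicates 1 and 2 and the second 7.004 and 4.73, and neither was called in replicate 3. Reads from near-identical copies can pile up there, so these values are uncertain. Repeats covered over 50% of the 200 bp at the summit in 22 members (3.33%), against 5.82% of all merged sites.

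Members were placed at starts of protein-coding genes about as often as shared sites were. The main summit lay within 1000 bp of a coding start in 153 members (23.1%), against 23.3% of shared sites, 4.01% of HOXA13-only sites and 11.7% of all merged sites. A further 112 members (16.9%) lay 1000 to 10000 bp away, 264 (39.9%) lay 10000 to 100000 bp away and 132 (19.97%) lay farther. The median distance was 19275 bp, against 31360 bp for shared and 58778 bp for HOXA13-only sites. Of the 153 near a start, 82 lay upstream and 71 downstream. Shared sites near a start lay upstream more often, with 5040 upstream and 1909 downstream, and all merged sites had 9345 and 6901. By annotation, 321 summits fell in introns (48.6%, against 49.4% of all merged sites) and 280 between genes (42.4% against 41.6%). A further 42 fell in UTRs (6.35% against 4.16%), 11 in coding exons (1.66% against 3.07%) and 7 in noncoding exons (1.06% against 1.81%).

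**Figure D2:**
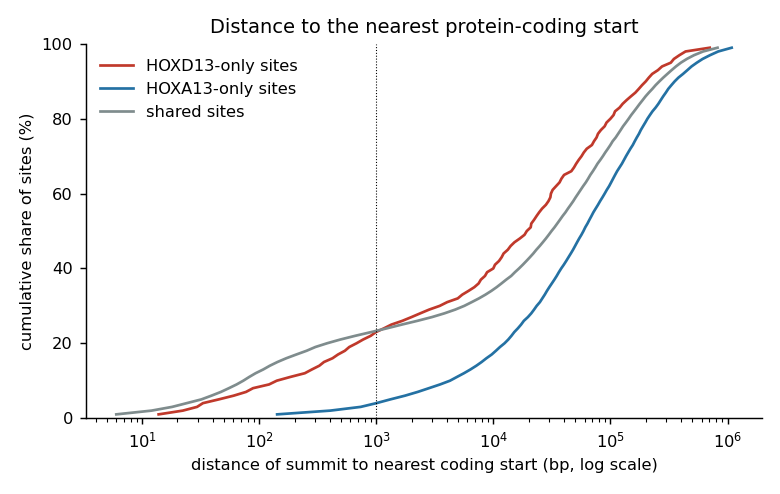
Cumulative share of sites (y axis, %) by distance of the main summit to the nearest start of a protein-coding transcript (x axis, bp, log scale), for HOXD13-only, HOXA13-only and shared sites. At the dotted line, 1000 bp, HOXD13-only and shared sites meet at 23.1% and 23.3%, and HOXA13-only sites stand at 4.01%.

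Library by library, the share near a start was slightly lower for members than for shared sites. It was 21.98% against 26.6% in HOXD13 replicate 1, 24.1% against 24.2% in replicate 2 and 23.2% against 23.9% in replicate 3. The mean difference was -1.84 percentage points (SD 2.44, n = 3 lists; two-sided exact sign-flip permutation p = 0.25, adjusted p = 0.3). With 3 lists this test cannot go below 0.25, and the 6 tests of this section share 1 Benjamini-Hochberg adjustment. Here, and in the tests of GC content and of the consensus below, the 3 lists were scored on the same sites, which they helped to choose. The lists are therefore not independent choices of sites, and their SD does not measure the spread between sites. The difference turned to 1.34 points when starts within 5000 bp were counted, and to 1.65 points among intervals at or below their list's median -log10 p. It was -7.55 points for members with no HOXA13 interval within 1000 bp. The 28 members called in replicates 1 and 3 alone stood apart, with 3.57% near a start. In lists cut to their top 20000 intervals, 48.8% of the HOXD13-only sites lay near a start.

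Among members near a start, those at Wdr13 and Armcx2 on the X chromosome ranked highest, followed by Msi2. The Wdr13 site, 176 bp past the start, had fold enrichments of 4.88 and 4.65 in HOXD13 replicates 2 and 3. The Armcx2 site, 30 bp before the start, had 6.76 and 3.84. Neither was called in replicate 1. The X chromosome held 18 members (2.72%), against 1.35% of shared and 1.67% of HOXA13-only sites.

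At middle distances, the intronic site of Mast1, a kinase gene, had 4.35 and 4.45 in replicates 2 and 3. The intergenic site 30855 bp upstream of Id3, which encodes an inhibitor of basic helix-loop-helix factors, had 3.63 and 4.85. Among remote sites, that assigned to Stt3b had 4.49 and 6.26 in replicates 1 and 2, and that 489917 bp upstream of Lcorl had 4.19 and 4.17 in replicates 2 and 3.

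The members were scattered over 633 nearest genes. Of these genes, 606 had 1 member, 26 had 2 and only Zmiz1, which encodes a transcriptional coregulator, had 3. Zmiz1 was nearest to 75 merged sites in all. The next genes in the fixed order, each with 2 members, were 3110018I06Rik, Bcl11b, Bcor, Bicc1, Cnksr3, Csrnp1, Fam49a, Gm6133 and Mctp2.

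Genes of limb development were not assigned a large share of the members. The list of 37 limb patterning genes had 7 members (1.06%) at 6 genes, against 0.666% of all merged sites and 0.813% of shared sites. The 27 signalling genes had 2 members (0.303% against 0.706% of all merged sites), and the 15 skeletal genes had 3 (0.454% against 0.379%). The lists of 10 muscle, 8 endothelium and blood, 5 peripheral nerve and 6 epidermis genes had 0 members each. These lists held 0.0859%, 0.109%, 0.0195% and 0.0397% of all merged sites, so few or no members would be assigned to them at that rate.

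In the HoxD locus, 2 members were found. The first, at chr2:74674464-74675202, had its summit 33 bp before the start of Hoxd12, a posterior gene of the cluster that is transcribed in the digits. Its fold enrichment was 3.26 and 2.58 in HOXD13 replicates 2 and 3, from pileups of 88 and 40 read ends, and the nearest HOXA13 interval was 545 bp away. The second, at chr2:74240585-74241137, lay centromeric of the cluster in C-DOM, the domain that holds the distal limb enhancers. It had 3.04 and 2.46 in replicates 1 and 3, with a HOXA13 interval 185 bp away.

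Sall3 and Sall1 encode zinc finger factors of limb patterning, and Tbx3, on the same gene list, encodes a T-box factor. The 2 members assigned to Sall3 had fold enrichments of 3.78 and 3.23, and of 2.31 and 3.03, in HOXD13 replicates 2 and 3. The Sall1 site, 228312 bp upstream, had 2.95 and 4.06 in replicates 1 and 2. The Tbx3 site, 77847 bp past the start, had 2.178 and 3.03 in replicates 2 and 3. The other two patterning members lay nearest to Hoxa9 and Osr1.

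Of the signalling genes, Ptch1, the receptor of Hedgehog ligands, had an intronic member with 3.18 and 2.64 in replicates 2 and 3. Wnt5a, a ligand of limb outgrowth, had a member 189751 bp upstream, in an intron of Erc2, with 2.43 and 3.23. Of the skeletal genes, Runx3 had a member with 3.95 and 3.64. Runx2, a regulator of bone cells, had an intronic member with 3.30 and 3.26. Sox9, a regulator of cartilage, had a member with 2.32 and 2.57 at 6184 bp past the start. All 5 were called in replicates 2 and 3 and not in replicate 1.

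The summits of members were richer in G and C than those of the other classes. Over 200 bp the mean GC content was 51.1% (SD 11.6 over sites), against 47.1% for shared and 42.0% for HOXA13-only sites and 46.9% for all merged sites. In the separate lists it was 49.9%, 52.1% and 49.4% for members and 47.3%, 48.4% and 46.2% for shared sites. The mean difference was 3.16 percentage points (SD 0.534, n = 3 lists, higher in 3 of 3; two-sided exact sign-flip permutation p = 0.25, adjusted p = 0.3). It was 3.84 points when only intervals over 1000 bp from a start were compared, and 1.97 points over 1000 bp windows. Near starts, members had 62.6% GC and shared sites 61.6%. Away from starts, the values were 47.6% and 42.7%. The 28 members of replicates 1 and 3 alone had 36.0%, below every other combination.

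**Figure D3:**
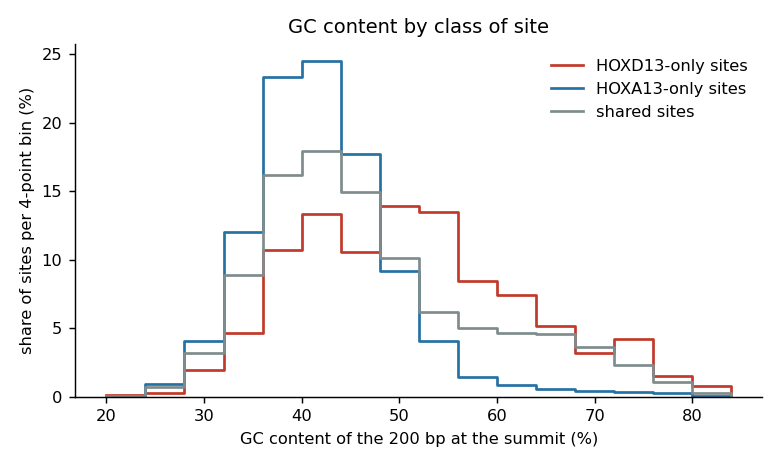
Distribution of GC content in the 200 bp at the summit (x axis, %) for HOXD13-only, HOXA13-only and shared sites, as the share of sites (y axis, %) per 4-point bin. HOXD13-only sites lie furthest to the right on average, with a mean of 51.1% against 42.0% and 47.1%.

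The HOX13 consensus was sparse at members. It was found within the 50 bp at the summit in 35 members (5.30%), against 12.8% of shared, 15.3% of HOXA13-only and 8.76% of all merged sites. Within 200 bp the shares were 14.7%, 31.4%, 37.7% and 23.6%. In the separate lists the 50 bp share was 6.03%, 5.00% and 4.13% for members and 11.8%, 11.46% and 8.29% for shared sites. The mean difference was -5.48 percentage points (SD 1.18, n = 3 lists, lower in 3 of 3; two-sided exact sign-flip permutation p = 0.25, adjusted p = 0.3). Away from starts, 6.30% of members and 15.4% of shared sites held it. The difference was -2.75 points among intervals at or below their list's median -log10 p, and -14.1 points with 200 bp windows.

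Members nevertheless held the consensus more often than their own flanks. In windows of 50 bp placed 1000 bp to either side, the share was 1.29%, 1.41% and 2.55% in replicates 1, 2 and 3. The mean log2 ratio of summit to flank was 1.58 (SD 0.795, n = 3 lists, above 0 in 3 of 3; two-sided exact sign-flip permutation p = 0.25, adjusted p = 0.3). These rest on 14, 32 and 21 summits with a match and 6, 18 and 26 flanking windows. Leaving out replicate 3 gave 2.03 and leaving out replicate 1 gave 1.26. With 200 bp windows the ratio was 0.54, and with the core ATAAA or GTAAA alone it was 0.14. The value for the core alone came mostly from replicate 1, with 0.400, against 0.0054 and 0.028 in replicates 2 and 3.

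A string that members held more often than the other classes was the core of the CTCF motif. CTCF is a zinc finger protein that holds chromatin loops and bounds domains. The core stood within 200 bp of the summit in 66 members (9.98%), against 3.62% of shared, 1.87% of HOXA13-only and 2.99% of all merged sites. In 24 of the 66 the middle of the core was within 25 bp of the summit. Away from starts the share was 11.6% for members and 3.9% for shared sites. Only 10 of the 66 also held the HOX13 consensus, Thra among them. This comparison has no test.

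The CTCF share varied with the libraries that made the call. In the separate lists it was 4.31% of member intervals against 2.29% of shared intervals in replicate 1, 9.38% against 3.76% in replicate 2 and 8.45% against 3.54% in replicate 3. Of the 158 members called without replicate 3, 8 (5.06%) held the core, and of the 431 called in replicates 2 and 3 alone, 48 (11.1%) did. Over all intervals of a list, the core was most frequent in replicate 3 under both antibodies. It was 4.10% in HOXD13 replicate 3 against 2.26% and 3.18% in replicates 1 and 2, and 4.07% in HOXA13 replicate 3 against 2.55% and 1.99%. The sites with at least 2 HOXD13 lists and 1 HOXA13 list, just outside the rule, held it in 8.86%. Sites called in 1 HOXD13 list and no HOXA13 list held it in 2.81%. Among member intervals the share was highest in HOXD13 replicate 2, so the order over whole lists was not that of the members. The part of the libraries in the share of members was not tested. In lists of equal length, cut to their top 20000 intervals, HOXD13-only sites held the core in 4.06%.

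Other strings of the fixed panel were compared in the same way. The GC box (GGGCGG) was found in 19.1% of members, 17.8% of shared and 3.42% of HOXA13-only sites. The homeodomain core TAATTA was found in 4.99%, 11.2% and 16.5% in this order, and the E-box CACGTG in 4.99%, 4.56% and 2.5%. The E-box CAGATG stood in 14.5% of members and 15.6% of all merged sites. For GGAATG, which TEAD factors recognise, the values were 12.7% and 12.6%. The CCAAT core ATTGG stood in 23.8% of members and 28.9% of all merged sites, and the TALE homeodomain string TGACAG in 10.1% and 12.9%. A match is a description of the letters and not a bound site.

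**Figure D4:**
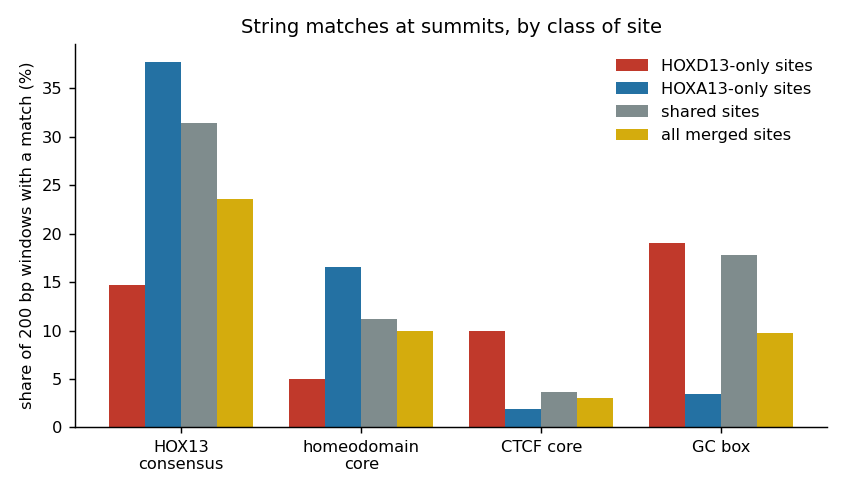
Share of 200 bp summit windows (y axis, %) that hold a match to the HOX13 consensus, a homeodomain core, the CTCF core or the GC box (x axis), for 4 classes of sites. HOXD13-only sites have the lowest bars for the first 2 strings and the highest for the CTCF core, 9.98% against 1.87% to 3.62%.

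The 542 lists were not used by the rule and give a separate view of the members. Chromosome 2 from the insertion site onwards was left out, since the 542 reads were mapped on a mutant genome, and 623 members remained. The 542 HOXD13 list called 334 of them (53.6%, 95% exact binomial interval 49.6 to 57.6), where it called 47.4% of all merged sites. The first 542 HOXA13 list called 222 (35.6%, 31.9 to 39.5) against 52.3% of all merged sites, and the second 116 (18.6%, 15.6 to 21.9) against 43.1%. The share called with HOXD13 was thus above that of all merged sites, and members also lay near a start more often (23.1% against 11.7%), where sites were called more often in general. With the HOXA13 antibody the share was below that of all merged sites. The rule barred members from every wt HOXA13 list and asked for at least 2 wt HOXD13 lists, whereas all merged sites met neither condition as a set. The choice of members by itself therefore favours a lower share with HOXA13, and this contrast is a description. The intervals cover counting error only.

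In HOXA13-only sites the 542 HOXD13 list called the smallest share, 62.7%, against 78.7% and 65.7% in the HOXA13 lists. It also called the smallest share of shared sites. Within 1000 bp of a start this order did not hold, with 56.4% of HOXA13-only sites called with HOXD13 and 59.0% and 35.8% with HOXA13. The log2 ratio of the share of HOXD13-only to the share of HOXA13-only sites was -0.23 in the HOXD13 library and -1.14 and -1.82 in the HOXA13 libraries. For sites within 1000 bp of a start, these ratios were 0.39, -0.52 and -0.82. Over all distances, the HOXD13 library was higher by 1.26 (1 against 2 libraries; one-sided exact permutation p = 0.333, adjusted p = 0.333), which is the smallest p that 3 libraries allow. The HOXD13 value comes from 1 library and has no spread of its own, so these libraries cannot show a difference between the antibodies. The 542 HOXD13 list is also the longest, with 117719 intervals against 99090 and 74344. In the top 50000 intervals of each, 33.4% of members were called with HOXD13 and 10.8% and 8.67% with HOXA13, and the difference in log2 ratio was 2.16. With a fold enrichment of at least 5 it was 3.04.

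**Figure D5:**
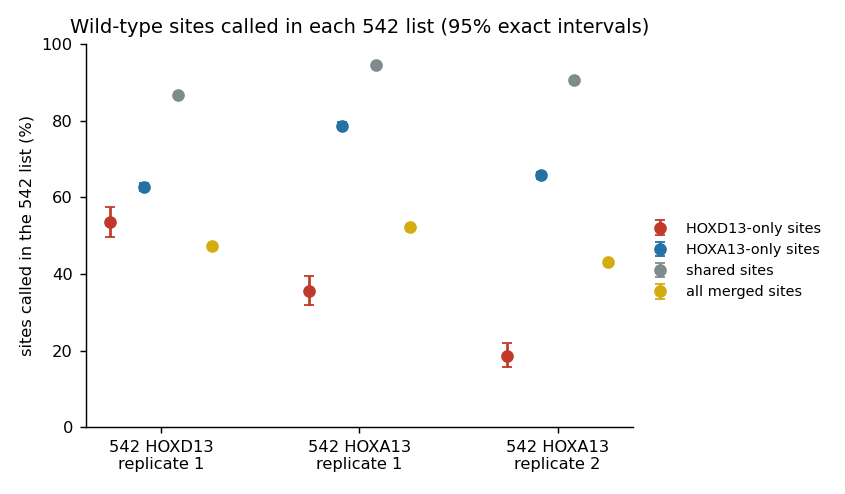
Share of wt sites called (y axis, %) in each of the 3 lists of the 542 line (x axis) for 4 classes of sites, with 95% exact binomial intervals. HOXD13-only sites fall from 53.6% in the HOXD13 list to 35.6% and 18.6% in the HOXA13 lists, while shared sites stay between 86.7% and 94.5%.

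Members were called less often than shared sites in every 542 library. Shared sites reached 86.7% in the HOXD13 list and 94.5% and 90.7% in the HOXA13 lists. The log2 ratio of members to shared sites was -0.69, -1.41 and -2.28. Its mean was -1.46 (SD 0.797, n = 3 libraries; two-sided exact sign-flip permutation p = 0.25, adjusted p = 0.3). By their definitions, shared sites had at least 1 wt HOXA13 list and members had none. This favours a lower value for members in the HOXA13 libraries, and the test cannot separate it from other differences. Members were also weaker than shared sites in wt, and the part of strength in this difference was not tested. The mean was -2.44 with the top 50000 intervals of each 542 list and -3.74 with a fold enrichment of at least 5. Sites called in 1 HOXD13 list and no HOXA13 list were called in 16.0% with HOXD13 and 11.53% and 5.52% with HOXA13. Sites with 2 or 3 HOXD13 lists and 1 HOXA13 list were called in 63.97%, 68.3% and 51.4%.

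Taking the 3 lists of the 542 line together, 71 members (11.4%) were called in all of them, against 34.2% of all merged sites. In none were 227 (36.4%), against 39.6%. The HOXD13 list alone called 147 members (23.6%), where it alone called 5.66% of all merged sites. The HOXA13 lists without the HOXD13 list called 62 members (9.95%, against 12.99%). The wt calls used by the rule bear on these contrasts as well. Of the 44 members found in all 3 wt HOXD13 lists, 40 could be compared, and 25 of these (62.5%) were called with HOXD13 and 15 and 10 with HOXA13.

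Members near a start and away from one differed in the 542 line. Within 1000 bp of a start, 73.9% of 138 members were called with HOXD13 and 41.3% and 20.3% with HOXA13. All merged sites near a start were called in 71.9%, 66.7% and 53.5%. Farther away, 485 members were called in 47.8%, 34.0% and 18.1%, against 44.2%, 50.4% and 41.7% of all merged sites. At both distances the members stood close to the general rate with HOXD13 and below it with HOXA13. The rule, which bars wt HOXA13 calls, favours that lower rate at both distances.

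Where members were called in the 542 line, the overlapping interval with the highest -log10 p had a median fold enrichment of 4.07 with HOXD13. With HOXA13 the medians were 3.42 and 3.28. That interval had to share only 1 bp with the member, so its summit may lie outside the member and belong to a neighbouring peak. The 542 values given by name here and below are to be read in the same way. By name, the Msi2 site had 7.58 with HOXD13, 2.41 in HOXA13 replicate 1 and no call in replicate 2. The Thra site had 7.88 and 3.83 and was likewise not called in HOXA13 replicate 2. Casq1, with 12.2, and Chst3, with 3.25, were called with HOXD13 only. So was the Hoxd12 site, whose overlapping interval had 3.76 and a summit pileup of 275 read ends (243 to 309 by an exact Poisson interval of 95%). The Ptch1 site, with 4.67, was also called with HOXD13 only.

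Others went against that pattern. The Ralyl site was called in both HOXA13 libraries, at 4.72 and 2.94, and not with HOXD13. The second HoxD member had 8.27 with HOXD13 and 6.99 and 3.10 with HOXA13, so HOXA13 intervals overlapped it in the 542 line. In wt a HOXA13 interval lay 185 bp away from it, and whether the 542 summits lie in the member was not checked. The 5 highest members called in all 3 lists lay nearest to Armcx2, Ppp2r5a, Id3, Lcorl and Mmrn1. Their fold enrichment with HOXD13 was 6.62, 4.55, 2.50, 3.12 and 5.01 in this order. For Id3, Lcorl and Mmrn1 it was higher in HOXA13 replicate 1, at 3.32, 5.62 and 5.62. Among members of the limb gene lists, Hoxa9, Osr1 and Sall1 were called with HOXD13 and in both HOXA13 lists. In HOXA13 replicates 1 and 2, Hoxa9 had 1.98 and 2.09, Osr1 3.35 and 2.69, and Sall1 4.35 and 3.16. Tbx3 and Runx3 were called with HOXD13 and in HOXA13 replicate 1, where they had 3.83 and 5.62. Runx2, like Hoxd12 and Ptch1, was called with HOXD13 only, at 2.46. Zcchc3, both Sall3 sites, Wnt5a and Sox9 were called in none of the 3 lists.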

How the data were processed

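CUT&RUN peak lists, 1 per library, were taken as deposited. According to the methods of the study, reads were trimmed with Cutadapt and mapped with bowtie2 (wt on mm10, 542 on the mutant genome). Pairs with a mapping quality of at least 30 were kept, and peaks were called per library with MACS2 at q 0.05 without a control. The study's text speaks of removing duplicates, whereas its printed command marks them without removal, so it is not known which holds. Tool versions are not given here. The fold enrichment (a ratio), the -log10 p-value and -log10 q-value and the score were computed by the authors' peak caller. The score was not used.

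Summit rows of 1 interval were collapsed to the row with the highest -log10 p. Merging, overlaps (at least 1 bp), distances to GENCODE M21 coding starts, string searches and exact tests were run with scipy 1.17.1, pysam 0.24.0, numpy 2.4.6 and pandas 2.3.3 under Python 3.11.15, and tested on simulated data. The 36.9 to 65.5 M read ends per library are an estimate from the low end of the background recovered with the pileups, not a count of reads. Pileups were recovered from fold enrichment and -log10 p; all those tried matched within 0.01 in -log10 p. Duplicates, if kept, raise pileups. Replicates are pools of embryos, and p-values measure only the spread between these libraries. Tests compared 3 libraries each and were adjusted over 6 tests by the Benjamini-Hochberg method.

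The members and lists were chosen with earlier results of these data known. Named sites were the 10 members of all 3 HOXD13 lists with the highest median percentile of fold enrichment, the first 3 of each of 4 distance classes, those in the HoxD locus or nearest to a gene of 7 fixed lists (up to 5 each), the first 5 called in all 3 542 lists, and the 10 genes with most members. Alternatives were stricter peak limits, other overlaps, windows, starts and strings, and each replicate left out.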

Additional observations from a re-analysis of the deposited data

How the results depend on the processing

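The count of 661 HOXD13-only sites became 0 with a fold enrichment of at least 5 in the HOXD13 lists, 78 with a -log10 q of at least 5, 44 with all 3 HOXD13 lists, 2070 with the top 20000 intervals of each list and 3385 with a reciprocal overlap of 50%, which overlapped 372 of the 661. Leaving out 1 wt library at a time gave 73 to 1922 sites. It was 484 with no HOXA13 interval within 1000 bp and 661 on autosomes and X. The cause of these shifts was not tested, except that both peak limits keep fewer intervals, and that all 3 lists is a stricter form of the same rule, by construction. The start-site difference of -1.84 percentage points turned to 1.65 among weaker intervals and to 1.34 with starts within 5000 bp; the cause was not tested. The other 5 tested results kept their direction in every alternative run: the antibody difference and the comparison with shared sites in 9 each, GC content in 7 and both consensus results in 8 each. None passed 0.05 in any setting, which the number of libraries does not allow, so those p-values say nothing about stability. Restricting sites by distance to a start, or leaving out the X chromosome, was chosen after seeing the data. No paired analysis was possible because no groups compared share 2 replicate numbers in the only test between groups (542 HOXD13 against 542 HOXA13). The wt HOXD13 and wt HOXA13 lists both carry replicates 1, 2 and 3. They served to choose the sites and were not tested against each other. The classes of sites were already compared within each library, so no further block was fitted. Depth limits the result, with member pileups at medians of 17, 27 and 17 read ends.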

Other observations

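Some members lay close together. Divided into stretches of 1 Mb, the genome had 2 that held 4 members each. On chromosome 10, from 128000001 to 129000000, they were nearest to Baz2a, Rbms2 (2 sites) and Coq10a. On chromosome 11, from 98000001 to 99000000, they were nearest to Med24, Thra and Msl1 (2 sites). Of these, the sites at the starts of Baz2a and Msl1 were called with HOXD13 and not with HOXA13 in the 542 line, with fold enrichments of 8.64 and 7.91. Others in the same stretches were called with both antibodies there. Both Rbms2 sites were called with HOXD13 and in both HOXA13 lists. The Thra site and the Msl1 site 8486 bp upstream were called with HOXD13 and in 1 HOXA13 list each. These stretches were noticed after values were seen and have no test. The number of merged sites in them was not set beside these counts, so it is not known whether members were dense there beyond sites in general.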
